A study of Sus scrofa with 32 samples.

Results

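The longissimus dorsi muscle of 32 pig fetuses was compared here by the level of the mRNAs that encode ribosomal proteins. A score was computed for each fetus as the mean of log2(FPKM + 0.5) over RPLP0, RPS3 and RPS15, the 3 of 5 named genes of the rule that carry their symbol in the deposited table. FPKM scales the fragments of a locus by the length of its transcript and by the size of the library. The 6 fetuses with the lowest scores (low-score fetuses) were set against the 6 with the highest (high-score fetuses), and the other 20 fetuses (middle fetuses) were kept apart. The low and high fetuses were thus selected on these same libraries, so every difference between them is a description and carries no test. Tests were made in the middle fetuses, which are in neither group, although score and locus come from the same library there too.

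The 32 fetuses came from pure Iberian sows inseminated with mixed semen of Iberian and Large White boars, kept on restricted feed, and were collected at gestation day 77. Of them 16 were purebred Iberian and 16 crossbred Iberian x Large White, with 8 females and 8 males in each genotype. The low-score fetuses were the crossbred 1338F2L (male), 1338F6L (female) and 1404F3L (female) and the Iberian 1410F2L (female), 1417F6L (male) and 1410F3L (male). The high-score fetuses were the Iberian 1404F5L (male), 1417F3L (female) and 1401F2L (female) and the crossbred 1401F1L, 1412F2L and 1340F5L (all male). The 4 digits that open each fetus name were taken as the sow, although no label says so, and fetuses of 1 sow share a litter. The study also sorted fetuses by body weight, a category that the labels used here do not hold.

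The ribosome is built from a large and a small subunit, each made of ribosomal RNA and of many different proteins. The mRNAs of these proteins belong to the class with a 5′ terminal oligopyrimidine tract (TOP), a run of C and T right at the cap that usually begins with a C, and many translation elongation and initiation factors share it. In mammals the tract lets the mTOR pathway switch the translation of the whole class on and off through LARP1, which also stabilises these mRNAs. In fetal muscle, ribosome number is one of the limits on how much contractile protein a growing fibre can make.

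The sequences around the annotated starts of 4 ribosomal protein genes, the score genes and RPL10, are shown here. The rule selected on FPKM and not on sequence. They are given 5′ to 3′ on the coding strand of Sscrofa11.1, read around the RefSeq transcript start, with the longest run of C and T that begins with a C in capitals. Counted from that start, the run begins at base -5 in RPLP0, -20 in RPS15 and RPS3 and -1 in RPL10. In RPS15 and RPS3 it therefore lies wholly upstream of the annotated start, outside the annotated mRNA.
RPLP0, chr14:40223929-40223958, minus strand: cggcgtacagCCCTCCTCTCgccaggcgtc
RPS15, chr2:77044745-77044774, minus strand: cttagCCCCTTCCCgggctcgcgcaggcgg
RPS3, chr9:9625250-9625279, plus strand: tttttCTTTCggctgcgcgcggcggcaaga
RPL10, chrX:124927239-124927268, plus strand: gtgggagcgCCTCTTTTCCTTCggcgcggt

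A run of at least 8 bases of C and T beginning with C lay within 25 bases of the RefSeq start in 39 of 69 ribosomal protein genes (56.5%) and in 15.5% of all 19468 protein-coding starts. On the opposite strand the same search found it in 13% of the ribosomal protein genes and in 17.9% of all starts. It was found in 5 of 17 translation factors of the TOP class (29.4%), in 20.3% of mitochondrial ribosomal protein genes and in 12.3% of respiratory chain genes. A RefSeq start need not be the cap site, so a gene without the run was not shown to lack the tract. Examples are RPS3 with a run of 5 bases and RPS16 with 6.

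The 3 mRNAs of the score were each lower in every low-score fetus than in every high-score fetus, which the selection itself largely fixes. The scores ran from 10.08 to 10.39 in low-score fetuses, from 10.46 to 11.39 in middle fetuses and from 11.43 to 11.81 in high-score fetuses. At the lower limit, 1404F3L with 10.39 was the last fetus inside and 1410F1L with 10.46 the first outside. At the upper limit, 1404F5L with 11.43 was inside and 1401F8L with 11.39 outside, so the groups were cut out of a continuous range and do not stand apart from it. The same 12 fetuses were chosen when the score was taken over all ribosomal protein genes or after median-of-ratios rescaling.

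RPLP0, a protein of the ribosomal stalk that recruits the elongation factors, had 1480, 1715 and 1851 FPKM (lowest, median, highest) in low-score fetuses and 3638, 3950 and 4776 FPKM in high-score fetuses. RPS3, a small subunit protein at the mRNA entry channel, had 889, 1029 and 1124 FPKM in low-score and 1950, 2092 and 2917 FPKM in high-score fetuses. RPS15, a protein of the small subunit head, had 955, 1018 and 1160 FPKM in low-score and 2609, 3137 and 3975 FPKM in high-score fetuses. The difference of the mean log2 values (low minus high, used throughout) was -1.25 for RPLP0, -1.11 for RPS3 and -1.61 for RPS15. In none of the 3 did the groups overlap.

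**Figure D1:**
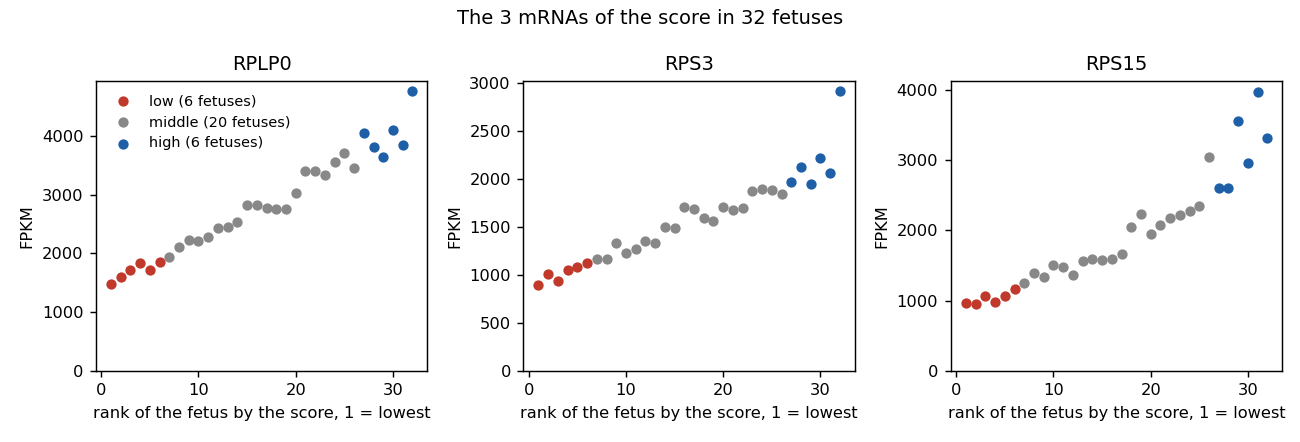
FPKM of RPLP0, RPS3 and RPS15 (vertical axes, from 0) in the 32 fetuses ordered by the score (horizontal axis), with the 6 low-score fetuses left, 20 middle fetuses between and the 6 high-score fetuses right, 1 point a fetus. Low-score fetuses reach at most 1851 FPKM for RPLP0, and high-score fetuses start at 3638 FPKM.

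Genotype, sex and sow were not shown to differ between the groups. Crossbred fetuses made up 3 of 6 low-score and 3 of 6 high-score fetuses (Fisher's exact test, two-sided, p = 1), and males 3 of 6 and 4 of 6 (Fisher's exact test, p = 1). The low-score fetuses came from 4 sows and the high-score fetuses from 5 (exact permutation test of the sow by group table, p = 0.411). All 3 adjusted p-values over these tests were 1, and with 6 fetuses a side only a very unequal split could have been found. By sow, 1338 and 1410 gave 2 low-score and no high-score fetus each, 1401 gave 2 high-score and no low-score fetus, 1404 and 1417 gave 1 of each, and 1340 and 1412 gave 1 high-score fetus each. Over all fetuses the score averaged 10.95 ± 0.49 in crossbred and 10.89 ± 0.46 in Iberian fetuses (SD, n = 16 each). It averaged 10.78 ± 0.41 in females and 11.06 ± 0.50 in males (SD, n = 16 each). The SD is the spread of single fetuses and does not measure the precision of a mean, and these differences of means were not tested.

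Some properties of whole libraries moved with the score. Between 16002 and 16877 loci exceeded 0.5 FPKM in low-score fetuses, against 14921 to 15906 in high-score fetuses, without overlap. The relative depth, estimated from the steps of the lowest FPKM values, overlapped, with 0.891 to 1.185 in low-score and 0.697 to 1.207 in high-score fetuses. Transcripts rich in G and C were low relative to those poor in G and C in low-score libraries (log2 medians apart by -0.496 to -0.254) and high in high-score libraries (0.170 to 0.614), again without overlap. The high-score fetus 1340F5L and the middle fetus 1410F6L carry values with more digits than the other libraries, and the high-score fetus 1417F3L stands apart by low sarcomere and fibroblast mRNAs, so counts without these 3, a choice made after seeing the data, are given below. The RNA integrity number of single fetuses was not analysed here. The markers of the labelled tissue were present in all 12 fetuses, with 3241 to 6390 FPKM of ACTA1 (skeletal actin) in low-score and 3400 to 10476 FPKM in high-score fetuses.

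Of 16233 loci with a mean over 0.5 FPKM, not counting the score genes, 1249 (7.69%) were higher and 2816 (17.3%) lower in every low-score fetus than in every high-score fetus. The median difference over all loci was -0.042. In the 20 middle fetuses, limma called 2121 loci (13.1%) that rose with the score and 600 (3.70%) that fell, with p-values adjusted after Benjamini and Hochberg and a limit of 0.05, and 4963 had an unadjusted p under 0.05. A slope is the change in log2(FPKM + 0.5) per unit of score, so that a slope of 1 means a change in proportion to the score genes. Median-of-ratios rescaling moved the balance, to 1858 (11.5%) higher and 2348 lower loci and to 1639 rising and 944 falling calls, and shifted the median of all loci to 0.023.

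The middle fetuses showed most of the same directions as the extremes. Of the 2816 loci lower in low-score fetuses, 2628 (93.3%) had a positive slope in the middle fetuses and 1408 were called as rising, which is 50% of the 2816 and 66.4% of the 2121 rising loci. Of the 1249 loci higher in low-score fetuses, 1089 (87.2%) had a negative slope and 209 were called as falling, 16.7% of the 1249 and 34.8% of the 600 falling loci. Over all loci 52.7% had a positive and 47.3% a negative slope. No locus was called in the opposite direction. The loci of a fetus share its library, so these counts are not independent observations. With the sow as a block 1407 loci (8.67%) were called as rising and 267 (1.64%) as falling, with genotype and sex in the model 1084 (6.68%) and 186 (1.15%), and without the middle fetus 1338F3L 300 (1.85%) were called as falling. Without 1417F3L 3327 loci (20.5%) were lower in every low-score fetus, and without 1340F5L 3339 (20.6%) were lower and 1584 (9.76%) higher.

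The other ribosomal protein mRNAs followed the 3 score genes closely. Of 61 measured loci, 49 were lower in every low-score fetus (17.3% of all loci) and none higher (7.69%), with a median difference of -1.01. Among the middle fetuses 38 of the 61 rose with the score in limma (13.1% of all loci) and 1 fell (3.70%). The 33 loci of the large subunit had a median difference of -1.03 with 25 lower, and the 26 of the small subunit -0.97 with 22 lower, so neither subunit stood out from the other.

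RPS16, a small subunit protein near the tRNA sites, had the widest gap, with 1121, 1346 and 1502 FPKM in low-score and 3068, 3999 and 5596 FPKM in high-score fetuses. Its slope in the middle fetuses was 1.34 (standard error 0.11, adjusted p = 8.6e-08 in limma). RPL10, which joins late to license the large subunit and whose start is printed above, had 1035, 1178 and 1385 FPKM in low-score and 2889, 3632 and 4244 FPKM in high-score fetuses, with a slope of 1.24 (standard error 0.09, adjusted p = 3.4e-08 in limma). RPS21, RPL37A and RPL32 had differences of -1.44, -1.42 and -1.36, and RPL7A and RPS10, measured in loci merged with neighbouring genes, had -1.33 and -1.31. In none of these did the groups overlap, and each rose with the score in the middle fetuses. The call of RPS10 was lost after the GC and length correction described below (adjusted p = 0.14 in limma).

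RPLP1 and RPL8, which the rule names but which stand in the table under Ensembl numbers only and so did not enter the score, were measured as well. RPL8, a large subunit protein, had 836, 981 and 1066 FPKM in low-score and 1946, 2385 and 3027 FPKM in high-score fetuses, with a slope of 1.05 (standard error 0.08, adjusted p = 6.2e-08 in limma). RPLP1, the acidic stalk protein that binds RPLP0, had 486, 597 and 626 FPKM in low-score and 780, 1046 and 1498 FPKM in high-score fetuses. Its slope of 0.38 (standard error 0.14, adjusted p = 0.07 in limma) was not called.

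There were 12 loci of the class that overlapped between the groups, namely RPL7, RPL22, RPL23, RPL23A, RPL26, RPL34, RPL35A, RPL37, RPS6, RPS18, RPS25 and RPS15A. Except for RPL22 their differences lay between -0.43 and -0.08 and none had a called slope, and RPL35A had a mean of only 0.632 FPKM at its locus. RPS6, the classical target of S6 kinase, had 877, 1080 and 1152 FPKM in low-score and 1083, 1470 and 1540 FPKM in high-score fetuses. RPL22, a large subunit protein that mice can live without, went the other way, with 248, 276 and 304 FPKM in low-score and 156, 178 and 272 FPKM in high-score fetuses. Its slope of -1.11 (standard error 0.25, adjusted p = 0.0038 in limma) was the only negative call of the class. The class is therefore not uniform, although nearly all its members had lower means in low-score fetuses.

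Paralogs of ribosomal protein genes, which encode alternative or related proteins, did not share a direction. Of 6 loci, 1 (RPL36AL) was higher in every low-score fetus and none lower, with a median difference of -0.01 that became 0.08 after median-of-ratios rescaling. RPL3L, the striated muscle paralog of RPL3, had 8.73, 12.8 and 17.5 FPKM in low-score and 16.8, 22.9 and 32.1 FPKM in high-score fetuses, with a slope of 1.22 (adjusted p = 0.018 in limma, and 0.17 after the GC and length correction described below). RPS27L, a paralog of RPS27 induced by p53, had 21.2, 26.8 and 30.0 FPKM in low-score and 16.5, 18.5 and 22.9 FPKM in high-score fetuses, with a slope of -0.90 (adjusted p = 0.0095 in limma, but 0.14 with the sow as a block and 0.078 with genotype and sex in the model). For both genes the groups overlapped.

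Translation factors whose mRNAs carry a TOP tract moved with the ribosomal proteins. Of 18 loci, 15 were lower in every low-score fetus (17.3% of all loci) and none higher, with a median difference of -0.99, and 13 rose with the score in limma (13.1% of all loci). EEF1B2, an exchange factor of elongation factor 1, had 126, 143 and 159 FPKM in low-score and 324, 426 and 558 FPKM in high-score fetuses, with a slope of 1.57 (standard error 0.11, adjusted p = 3.4e-08). EEF1G, another subunit of that complex, had 872, 950 and 1061 FPKM in low-score and 2183, 2641 and 3301 FPKM in high-score fetuses. EIF3G, a subunit of initiation factor 3, had 40.1, 48.5 and 51.4 FPKM in low-score and 91.4, 121 and 145 FPKM in high-score fetuses. Its slope was 1.16 (standard error 0.07, adjusted p = 6.1e-09 in limma). The loci of EEF2 and RACK1, both merged with a neighbouring gene, had differences of -0.98 and -1.17. NPM1, EIF4A2 and NAP1L1, which have been counted in the same class, had -0.33, -0.20 and -0.04 and no called slope.

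Initiation factors outside the TOP class were lower less uniformly. Of 20 loci, 9 (45%, against 17.3% of all loci) were lower and 2 (EIF1AX and EIF3A, 10%, against 7.69%) higher in every low-score fetus. In the middle fetuses 9 rose (45%, against 13.1%) and 1 (EIF1AX) fell (5%, against 3.70%), and with genotype and sex in the model 6 rose and none fell. EIF2B2, a subunit of the exchange factor of eIF2, had 18.7, 20.4 and 23.4 FPKM in low-score and 41.1, 58.4 and 71.4 FPKM in high-score fetuses. EIF4EBP1, the mTOR-controlled repressor of cap binding, overlapped, with 46.0, 51.5 and 54.7 FPKM in low-score and 47.2, 104 and 335 FPKM in high-score fetuses, and its slope of 0.90 (adjusted p = 0.098 in limma) was not called. Across 21 genes of mTOR control and amino acid stress the median difference was -0.17, with 2 lower (AKT1S1 and RPS6KB2, 9.52%), 1 higher (EIF2AK4, 4.76%), 3 rising (those 2 and ASNS, 14.3%) and 1 falling (EIF2AK4, 4.76%). These shares were near or under those of all loci (17.3%, 7.69%, 13.1% and 3.70%). Without 1417F3L 5 of the 21 were lower, against 20.5% of all loci.

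Outside ribosomal proteins and translation factors, 1473 loci with the run had a median difference of -0.13 and 14.9% rose with the score, against -0.14 and 15.3% of 7897 loci without it.

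**Figure D2:**
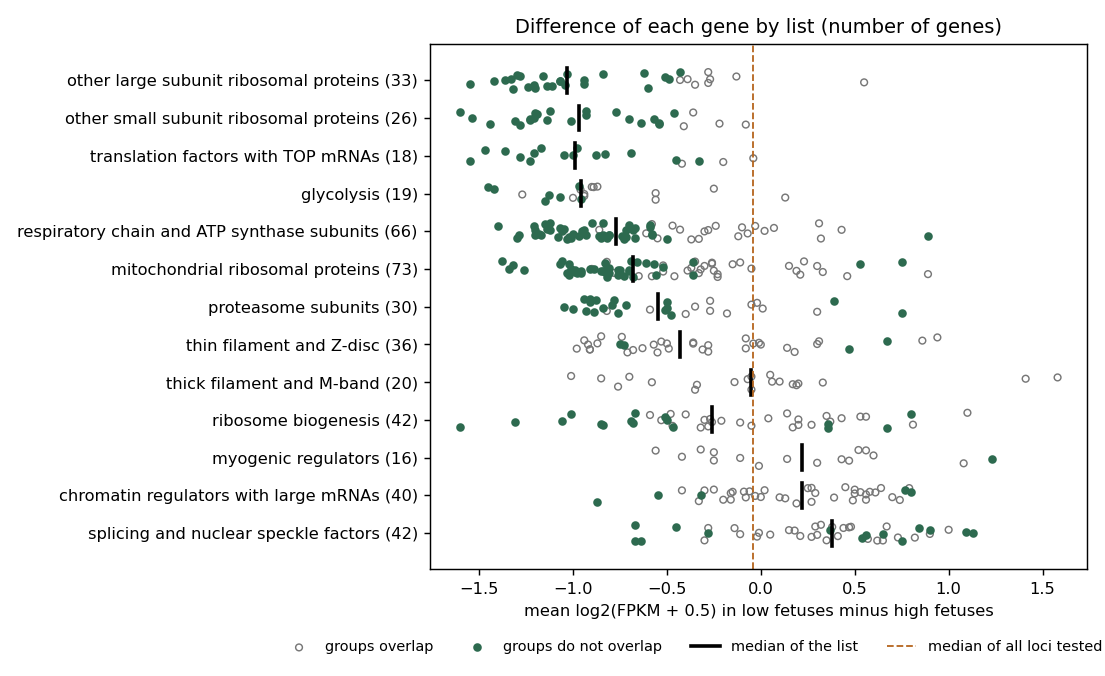
Difference of the mean log2(FPKM + 0.5), low-score minus high-score fetuses (horizontal axis), for each gene of 13 lists (rows, number of genes in brackets). Filled points are genes whose groups do not overlap, bars are list medians and the dashed line is the median of all loci (-0.042). Ribosomal proteins and TOP factors lie near -1, sarcomere genes are spread over both sides, and splicing factors lie mostly above 0.

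Mitochondrial and metabolic genes were also lower in low-score fetuses. Of 73 mitochondrial ribosomal proteins, which build the separate ribosome of the organelle, 41 were lower and 2 (MRPL1 and MRPS18C) higher in every low-score fetus (17.3% and 7.69% of all loci). Their median difference was -0.68, and 38 rose in the middle fetuses (52.1%, against 13.1% of all loci). Of 66 nuclear-encoded subunits of the respiratory chain and ATP synthase, 45 were lower and 1 higher, with a median difference of -0.77. In the middle fetuses 48 rose (72.7%, against 13.1% of all loci) and 1 fell (1.52%, against 3.70%). With genotype and sex in the model 23 mitochondrial ribosomal proteins rose and 2 fell, and 28 respiratory chain genes rose and 1 fell. Over all loci 6.68% rose and 1.15% fell under that setting. COX5B, a subunit of cytochrome c oxidase, had 58.3, 67.6 and 85.3 FPKM in low-score and 149, 182 and 220 FPKM in high-score fetuses, with a slope of 1.39 (standard error 0.16, adjusted p = 3.4e-06 in limma). MRPL37 of the mitochondrial large subunit had 23.2, 26.6 and 29.2 FPKM in low-score and 52.5, 67.6 and 85.0 FPKM in high-score fetuses. NDUFA5, a subunit of complex I, was the exception, with 9.23, 11.3 and 13.0 FPKM in low-score and 4.22, 6.13 and 7.82 FPKM in high-score fetuses, and COX6C fell in the middle fetuses with a slope of -0.73 (adjusted p = 0.019 in limma), a call that was lost with the sow as a block and without 1338F3L.

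Of 19 glycolytic genes 7 (36.8%, against 17.3% of all loci) were lower in every low-score fetus and none higher, with a median difference of -0.96, and 12 (63.2%, against 13.1%) rose with the score. LDHB, the lactate dehydrogenase subunit of oxidative tissue, had 182, 212 and 231 FPKM in low-score and 453, 572 and 748 FPKM in high-score fetuses. ENO1, the enolase of non-muscle and immature muscle cells, had 96.6, 107 and 122 FPKM in low-score and 244, 272 and 418 FPKM in high-score fetuses. Without 1417F3L 14 of the 19 were lower, against 20.5% of all loci, so 7 genes overlapped through this fetus alone.

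Of 30 proteasome subunits 17 (56.7%, against 17.3% of all loci) were lower and 2 (PSMC6 and PSMD12, 6.67%, against 7.69%) higher in every low-score fetus, with a median difference of -0.55. In the middle fetuses 22 rose (73.3%, against 13.1% of all loci), and 14 with genotype and sex in the model. After the GC and length correction 7 were lower (9.48% of all loci) and the median was -0.11. PSMD13, a lid subunit, had 48.8, 56.6 and 60.2 FPKM in low-score and 98.8, 116 and 130 FPKM in high-score fetuses. Of 14 cytoskeleton and housekeeping genes 10 (71.4%) were lower, among them ACTG1 (cytoplasmic actin) with 541, 607 and 639 FPKM in low-score and 1037, 1132 and 1509 FPKM in high-score fetuses. Of 42 ribosome biogenesis factors 12 (28.6%, against 17.3% of all loci) were lower and 4 (9.52%, against 7.69%) higher, with a median difference of -0.26. After the GC and length correction 4 were lower and 9 higher, with a median of 0.07. EIF6, which keeps the subunits apart, was lower with a difference of -1.31 and NCL (nucleolin) higher with 0.36. NOP56, a box C/D snoRNP protein, had a difference of -1.60 in which 1412F2L weighed with 5716 FPKM, while the other high-score fetuses had 33.3 to 47.9 FPKM and the low-score fetuses 29.2 to 32.2 FPKM.

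Base composition and length of the mRNA went with the difference across the whole transcriptome. GC content and length of the RefSeq mRNA were known for 9672 of 10238 loci with 1 symbol (94.5%), with a median GC of 51.1%. In mRNAs of up to 40% GC, 23.9% of 1030 loci were higher and 1.46% lower in every low-score fetus, with a median difference of 0.45. Above 60% GC, 0.69% of 2028 loci were higher and 36.3% lower, with a median difference of -0.46. In the middle fetuses 1.65% of the loci up to 40% GC rose and 9.32% fell with the score, against 21.6% and 1.04% above 60% GC. Loci lower in low-score fetuses outnumbered those higher in them in each bin above 45% GC.

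**Figure D3:**
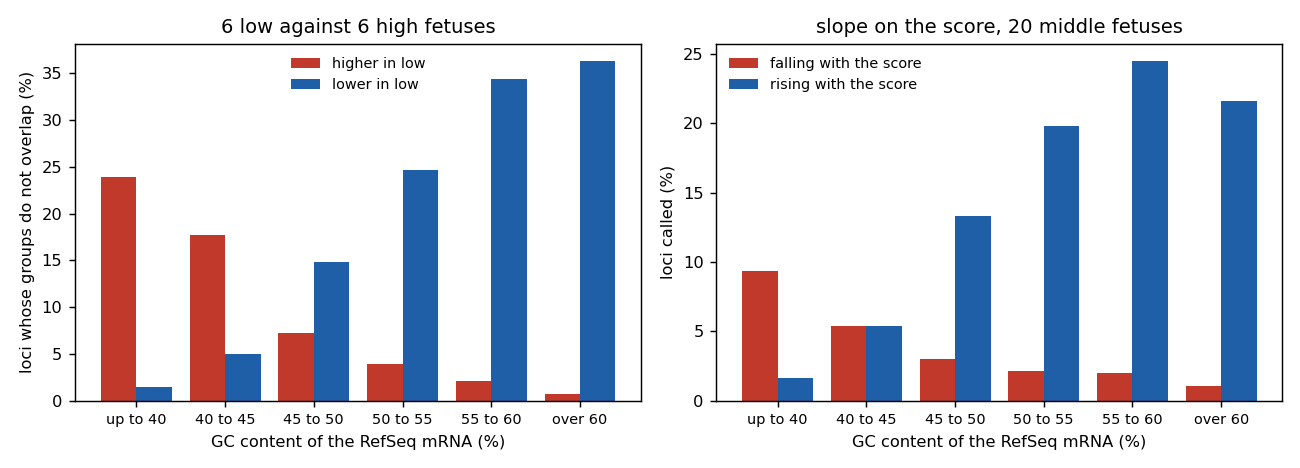
Share of loci (vertical axes, percent) by GC content of the RefSeq mRNA (horizontal axes). Left, loci higher or lower in every low-score than in every high-score fetus; right, loci called by limma as falling or rising with the score in 20 middle fetuses. Loci lower in low-score fetuses grow from 1.46% to 36.3% across the GC range, and loci higher in them shrink from 23.9% to 0.69%.

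Across these loci the Spearman correlation of GC content with the difference was -0.55 and with the middle slope 0.40, and that of mRNA length with the difference was 0.45. Loci of 1 library share its preparation and depth, so these are descriptions across genes. The median difference was -0.62 for mRNAs of up to 1000 bases and 0.27 for those over 8000 bases. Among short GC-rich mRNAs (up to 2000 bases, over 55% GC) 50.9% were lower in every low-score fetus, and among long GC-poor ones (over 4000 bases, up to 45% GC) 25.6% were higher. The correlation of GC content with the difference was -0.63 over 61 ribosomal proteins, -0.74 over 55 respiratory chain genes, -0.66 over 69 mitochondrial ribosomal proteins and -0.63 over 40 splicing factors, but 0.05 over 19 glycolytic genes. Single genes departed from this, since RPS15A and RPS18, with 54.1% and 52.6% GC, had differences of only -0.08 and -0.22, and RPL9, with 38.7% GC, had -0.84.

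When each library was centred within bins of GC content and mRNA length, a setting chosen after seeing the data, 906 of 9849 loci (9.20%) were higher and 934 (9.48%) lower in every low-score fetus. Among the middle fetuses 728 (7.39%) rose and 553 (5.61%) fell. The median over these loci changed to 0.009, against -0.138 before. The setting removes any difference that goes with GC content and length, whatever its source, and which part of it lies in the libraries and which in the muscle cannot be told apart.

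Under this setting the ribosomal proteins had 37 lower loci of 61 and none higher, with a median difference of -0.51, and 28 rose and 5 fell with the score. TOP translation factors had 14 lower of 17 with a median of -0.58, and glycolysis 5 lower of 19 with -0.43. The respiratory chain had 14 lower and 4 higher of 55 with -0.25. Mitochondrial ribosomal proteins and proteasome subunits came close to the level of all loci, with -0.10 and -0.11. Splicing factors had a median of 0.34, against 0.38 as deposited, and 12 higher and 3 lower of 40.

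**Figure D4:**
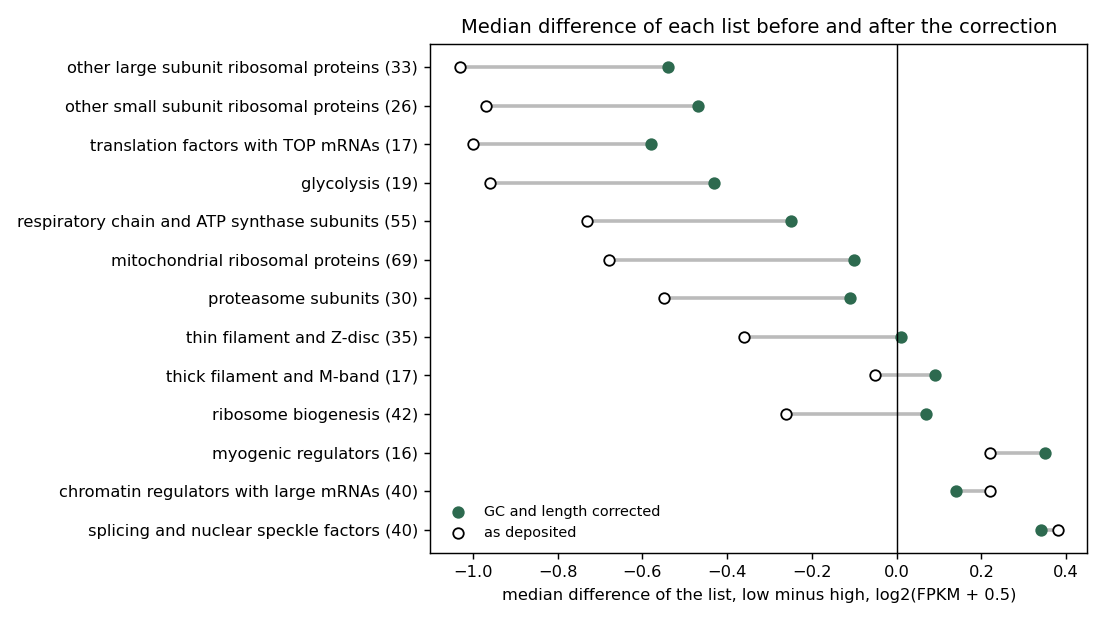
Median difference of each list, low-score minus high-score fetuses in log2(FPKM + 0.5) (horizontal axis), as deposited (open points) and after centring within bins of GC content and mRNA length (filled points), over the same loci (number in brackets). Ribosomal proteins, TOP factors and glycolysis stay at -0.43 or below, proteasome subunits move from -0.55 to -0.11, and splicing factors stay near 0.34.

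Sarcomere genes, which encode the contractile apparatus, did not separate low-score from high-score fetuses. Of 56 loci 2 were higher (CAPZA2 and the merged locus of MYOT) and 2 lower (CAPZB and the merged locus of TMOD4) in every low-score fetus, under the shares of all loci (7.69% and 17.3%), and the median difference of -0.30 turned to 0.05 after the GC and length correction. The mean over the 56 loci was 7.01 to 7.48 in low-score and 6.26 to 8.20 in high-score fetuses on the log2 scale, so the low-score fetuses lay inside the range of the high-score fetuses. The lowest value was that of 1417F3L, while the other 5 high-score fetuses had 7.56 to 8.20 and lay above all low-score fetuses. Without 1417F3L 21 of the 56 were lower in every low-score fetus, against 20.5% of all loci, and the median was -0.53. Without 1340F5L the median was -0.06. Leaving out these 2 and 1410F6L gave 21 lower sarcomere loci with a median of -0.35, and 3945 lower loci (24.3%) over all 16233.

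Thin filament and Z-disc genes leaned lower, with a median of -0.43 that became 0.01 after the GC and length correction, and thick filament and M-band genes had -0.05, which became 0.04 after median-of-ratios rescaling. TNNC1 (slow troponin C) had 534, 592 and 623 FPKM in low-score fetuses, against 443 FPKM in 1417F3L and 1013 to 1654 FPKM in the other high-score fetuses. The same shape was seen in MYOZ1 (a Z-disc calsarcin, in a locus merged with SYNPO2L), with 450 to 654 FPKM in low-score fetuses, against 380 FPKM in 1417F3L and 828 to 1772 FPKM in the other high-score fetuses. MYL4, the embryonic and atrial light chain, had 417, 633 and 829 FPKM in low-score and 493, 1605 and 1720 FPKM in high-score fetuses.

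Among the middle fetuses 26 of the 56 sarcomere loci rose with the score (46.4%, against 13.1% of all loci) and none fell. With the sow as a block 11 rose (8.67% of all loci under that setting), with genotype and sex in the model 13, after the GC and length correction 14 of 52 (7.39%), and without the middle fetus 1338F3L 18 of the 56. MYOZ1 had a slope of 1.77 (standard error 0.24, adjusted p = 3.6e-05), TPM2 (beta-tropomyosin) 1.49 (standard error 0.19, adjusted p = 1.8e-05) and TNNC1 1.85 (standard error 0.35, adjusted p = 0.00099), all in limma. The fast light chain MYLPF had a slope of 1.30 (standard error 0.27, adjusted p = 0.0021, but 0.093 with the sow as a block and 0.055 with genotype and sex in the model). With the score taken over all ribosomal protein genes, TNNC1 (adjusted p = 0.076 in limma) and MYLPF (0.1) lost their calls, while MYOZ1 and TPM2 kept theirs.

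Some sarcomere genes had the opposite sign. CAPZA2, the alpha subunit of the actin capping protein, had 79.9, 94.2 and 113 FPKM in low-score and 39.7, 59.7 and 73.8 FPKM in high-score fetuses, while its partner CAPZB had 58.2, 67.6 and 73.6 FPKM in low-score and 102, 111 and 126 FPKM in high-score fetuses. The RefSeq mRNAs have 39.0% GC in CAPZA2 and 52.2% in CAPZB. XIRP2 and NEB, which encode very long actin-binding proteins, had differences of 0.94 and 0.86 with overlap. The myosin heavy chains MYH4 (fast IIb) and MYH13 (extraocular) had the largest differences of the list, 1.58 and 1.41, at low levels that overlapped, with 0.372, 7.29 and 10.8 FPKM of MYH4 in low-score and 0.246, 0.699 and 4.78 FPKM in high-score fetuses. The developmental myosins MYH3 and MYH8 had -0.07 and 0.17.

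**Figure D5:**
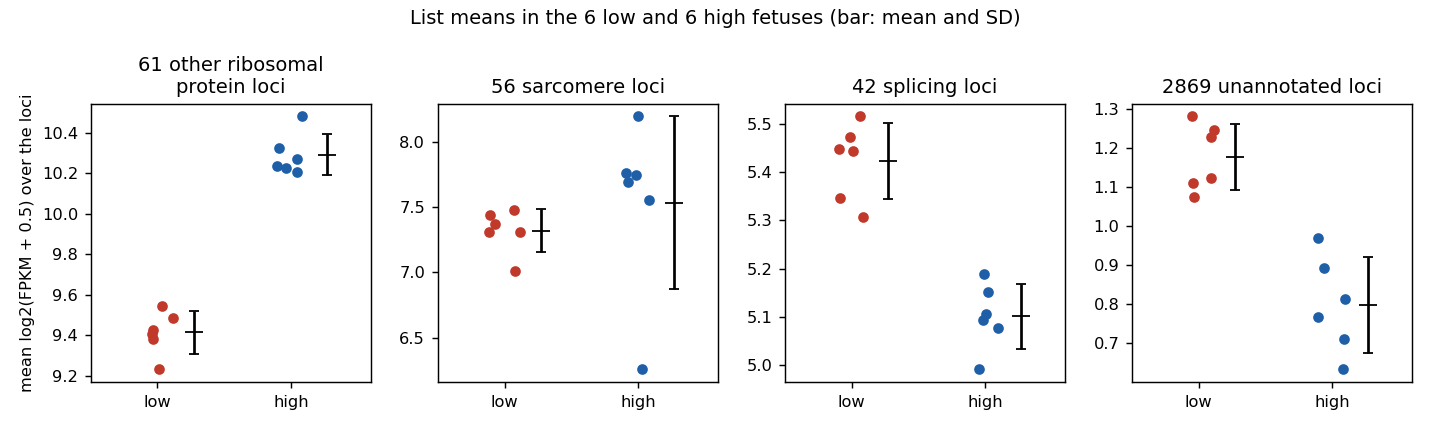
Mean log2(FPKM + 0.5) over the loci of 4 groups (vertical axes, not from 0) in each of the 6 low-score (left) and 6 high-score (right) fetuses, with the mean and SD as bars. The groups are apart for the 61 ribosomal protein loci (9.23 to 9.55 against 10.21 to 10.48), the splicing factors and the unannotated loci, and overlap for the sarcomere loci (7.01 to 7.48 against 6.26 to 8.20).

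Myogenic regulators had a median difference of 0.22 over 16 loci, with 1 (MEF2C, 6.25%, against 7.69% of all loci) higher in every low-score fetus and 6 (37.5%, against 13.1%) rising with the score in the middle fetuses. Neither value was stable. The median was -0.02 without 1417F3L, and 0 loci rose with the sow as a block, 1 with genotype and sex in the model and 2 without 1338F3L. The locus of MEF2C, a transcription factor of muscle genes, had 168, 189 and 210 FPKM in low-score and 35.8, 89.9 and 146 FPKM in high-score fetuses, with a slope of 0.05 (adjusted p = 0.95 in limma). MYMK, the membrane protein of myoblast fusion, overlapped with a difference of -0.56 and rose in the middle fetuses with a slope of 1.97 (standard error 0.48, adjusted p = 0.0073), which with the sow as a block was 1.13 (adjusted p = 0.12). Excitation-contraction genes had a median of -0.04 with no locus apart in either direction, 0.05 after median-of-ratios rescaling and -0.34 without 1417F3L. Of the 17 loci 6 rose in the middle fetuses (35.3%, against 13.1% of all loci), and 0 with the sow as a block.

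Nuclear factors of pre-mRNA splicing were higher in low-score fetuses. Of 42 loci 9 were higher (21.4%, against 7.69% of all loci) and 5 lower (11.9%, against 17.3%) in every low-score fetus, with a median difference of 0.38, and 11 fell (26.2%, against 3.70%) and 3 rose in the middle fetuses. After median-of-ratios rescaling 21 were higher (11.5% of all loci) and 4 lower, and 14 fell and 2 rose. Over all loci the falling calls grew from 600 to 944 under that rescaling. Without 1340F5L 16 were higher (9.76% of all loci) and 6 lower (20.6%). With the sow as a block 11 fell as well (1.64% of all loci), and with genotype and sex in the model 4 fell (1.15%). The mean over the 42 loci was 5.31 to 5.52 in low-score and 4.99 to 5.19 in high-score fetuses on the log2 scale, without overlap.

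SF3B1, the branch point protein of the U2 snRNP, had 83.2, 114 and 139 FPKM in low-score and 47.2, 57.9 and 80.1 FPKM in high-score fetuses, with a slope of -0.71 (standard error 0.13, adjusted p = 0.0007 in limma). LUC7L3, a U1-associated factor, had 22.1, 33.2 and 37.5 FPKM in low-score and 8.47, 14.7 and 20.1 FPKM in high-score fetuses, with a slope of -0.99 (adjusted p = 0.017, but 0.065 with genotype and sex in the model and 0.061 after the GC and length correction). RBM25 was also apart, with a difference of 1.09 but no call in the middle fetuses (adjusted p = 0.09). Other members went down instead, such as SF3B2, the partner of SF3B1 in the same complex, with 27.5, 30.9 and 33 FPKM in low-score and 42.2, 47.3 and 57.3 FPKM in high-score fetuses. The RefSeq mRNAs of SF3B1 and SF3B2 have 39.8% and 58.1% GC.

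Chromatin regulators with very long mRNAs had a median difference of 0.22 over 40 loci, with 2 higher (CHD7 and KMT2C, 5%, against 7.69% of all loci), 3 lower (KMT2D, SETD1A and the merged locus of NSD1, 7.5%, against 17.3%) and 5 rising with the score (12.5%, against 13.1%). With the sow as a block 1 rose and with genotype and sex in the model 2. After median-of-ratios rescaling 10 were higher (11.5% of all loci) and 3 lower. CHD7, a chromatin remodeller, had 6.78, 7.90 and 8.39 FPKM in low-score and 2.24, 4.47 and 6.40 FPKM in high-score fetuses, and its slope of -0.31 (adjusted p = 0.52 in limma) was not called. Genes of the nuclear envelope, pore and export went both ways, with 3 of 21 higher (SUN1, NUP210 and RANBP2, 14.3%, against 7.69%) and 4 lower (LMNA, EMD, NUP214 and the merged locus of NXF1, 19%, against 17.3%). SUN1 of the inner nuclear membrane was higher with a difference of 0.72, while EMD (emerin) and LMNA (lamin A) were lower with -0.83 and -0.66. The 16 listed nuclear long noncoding RNAs and 15 snoRNA host genes matched no locus by name and were not analysed.

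Loci without an annotated gene moved against the annotated ones. The 2869 unannotated loci had a median difference of 0.42, with 259 (9.03%) higher and 25 (0.871%) lower in every low-score fetus, while 11330 loci with a gene symbol had -0.15, with 890 (7.86%) higher and 2483 (21.9%) lower. In the middle fetuses 130 unannotated loci (4.53%) fell with the score and 24 (0.837%) rose, against 3.39% and 16.4% of loci with a symbol. Over all loci 7.69% were higher, 17.3% lower, 3.70% fell and 13.1% rose. The unannotated loci were thus near all loci in higher and falling shares, and far under them in lower and rising shares. With the sow as a block 59 fell (1.64% of all loci under that setting), with genotype and sex in the model 41 (1.15%), and without 1338F3L 85 (1.85%). Without 1417F3L 44 unannotated loci were lower in every low-score fetus (20.5% of all loci). The mean over the unannotated loci was 1.07 to 1.28 in low-score and 0.63 to 0.97 in high-score fetuses on the log2 scale.

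The shift was seen in each kind of unannotated locus. The median difference was 0.42 for 1055 loci outside RefSeq genes, 0.51 for 114 inside a RefSeq gene but off its exons, 0.33 for 787 that overlap an exon and 0.49 for 845 whose region is shared with other loci. It was 0.42 at a mean of 0.5 to 1 FPKM, 0.42 at 1 to 5 FPKM and 0.41 above 5 FPKM. Loci with a symbol had -0.05, 0.00 and -0.20 at 0.5 to 1, 1 to 5 and 5 to 50 FPKM, and -0.66 above 50 FPKM. GC content was taken from RefSeq mRNAs only, so the unannotated loci had no GC value here and were not corrected for it. In bulk tissue fewer cells of a type and less RNA per cell cannot be told apart.

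The unannotated loci with a mean of at least 5 FPKM, no overlap of the groups and the largest differences are given by position. A locus of 78 bases on chromosome 5 (41679181 to 41679258, Sscrofa11.1) had 5905 to 31178 FPKM in low-score fetuses, against 2093, 2744 and 5077 FPKM in 3 high-score fetuses and a listed 0 in the other 3, so no fold is given. A locus on chromosome 7 (86108333 to 86124548), at LOC100152407, had 12.6, 23.1 and 26.7 FPKM in low-score and 3.86, 5.40 and 7.26 FPKM in high-score fetuses, with a slope of -1.59 (standard error 0.32, adjusted p = 0.0017 in limma, but 0.068 with genotype and sex in the model). A locus on chromosome 10 (23749326 to 23779621), in the region of LAD1 and TNNT2, had 16.9 to 48.2 FPKM in low-score and 5.01 to 11 FPKM in high-score fetuses and no called slope. Lower was, with 1617, 1748 and 1956 FPKM in low-score and 4365, 5812 and 7504 FPKM in high-score fetuses, a locus of chromosome 5 (21506535 to 21507790) that overlaps ZC3H10. It had a slope of 1.48 (standard error 0.13, adjusted p = 2.7e-07 in limma). Its level was of the order of the ribosomal protein mRNAs. Of 44 other large subunit ribosomal protein genes listed, 38 matched a locus, and whether an unmatched gene lies in this locus was not examined. The loci at HPCAL1 and LOC110256752 had differences of -1.50 and -1.08.

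Among loci with a symbol outside the ribosomal proteins, a mean of at least 5 FPKM and no overlap of the groups, the largest differences upwards were those of HNRNPH1, COPG2, TTC14, CCDC39, GPR75, PAXBP1, MEF2C, KLHL31, HOMER1 and RALGPS2, from 1.65 to 1.13. HNRNPH1, a splicing regulator, had 9.79, 13.8 and 27.5 FPKM in low-score and 2.36, 3.61 and 9.38 FPKM in high-score fetuses at this locus, while a second locus of the gene at 120 FPKM had a difference of 0.57. COPG2 and RALGPS2 also have a locus at a higher level, with differences of -0.24 and -0.01. PAXBP1, a PAX7-binding protein in mouse muscle progenitors, had 17.6, 23.2 and 27.2 FPKM in low-score and 7.00, 9.49 and 12.4 FPKM in high-score fetuses, with a slope of -0.85 (standard error 0.19, adjusted p = 0.0033 in limma). KLHL31, a striated muscle protein, had 35.2, 44.4 and 45.6 FPKM in low-score and 8.45, 23.9 and 31.3 FPKM in high-score fetuses, and its slope of 0.73 was not called (adjusted p = 0.32). Of the 10, TTC14 and PAXBP1 fell in the middle fetuses, TTC14 with an adjusted p of 0.053 once genotype and sex were in the model.

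Under the same limits the largest differences downwards were those of GPX3, FCN2, ADIRF, C4A, SOD3, PPP1R1B, S100A13, NKG7, APOE and APOD, from -2.54 to -1.80, and only ADIRF was called in the middle fetuses (slope 0.91, standard error 0.30, adjusted p = 0.044 in limma), a call lost with the sow as a block (adjusted p = 0.12) and when any 1 of 13 middle fetuses was left out. GPX3, the plasma glutathione peroxidase, had 1.57, 2.14 and 4.85 FPKM in low-score and 6.31, 14.0 and 84.4 FPKM in high-score fetuses. APOE, an apolipoprotein made by macrophages and adipose cells among others, had 43.4, 84.3 and 97.7 FPKM in low-score and 160, 209 and 1127 FPKM in high-score fetuses. In 8 of the 10 the highest value was that of 1417F3L, and S100A13 and APOD were highest in 1340F5L with 203 and 265 FPKM.

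In the middle fetuses the smallest p-values among rising genes were those of EIF3G, HSD11B1L, EEF1B2, EEF1D, EIF3K, MRPL37, EEF1G, UBXN1, GLRX3 and STX8, with adjusted p from 6.1e-09 to 1.9e-07 in limma, and in all 10 the low and high fetuses were apart in the same direction. HSD11B1L had 202, 236 and 257 FPKM in low-score and 530, 641 and 801 FPKM in high-score fetuses. Of the 10 loci, 8 lie in a region shared with other loci, the exceptions being EEF1G and GLRX3. The values of these 8, HSD11B1L among them, may hold reads of a neighbouring gene. Whether that is a ribosomal protein gene without a matched locus was not examined. The falling genes with the smallest p were RSRP1, ZNF251, let-7d, ZNF397, the merged locus of HOXD3, HOXD4 and mir-10b, GALNT11, PAPD4, ZRANB2, ARMCX1 and CREBZF. RSRP1, an arginine and serine rich protein, had 25.4, 34.8 and 40.5 FPKM in low-score and 11.4, 18.4 and 21.3 FPKM in high-score fetuses, with a slope of -1.31 (standard error 0.16, adjusted p = 1.1e-05 in limma). The locus of let-7d had 5.32, 7.24 and 8.77 FPKM in low-score and 1.27, 3.36 and 5.09 FPKM in high-score fetuses. That locus spans 1580 bases, so the value is not that of the mature microRNA.

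Markers of other cell types were lower in low-score fetuses for several types, and their part in the results was not tested. The 7 macrophage markers averaged 3.15 to 3.69 in low-score and 4.00 to 5.40 in high-score fetuses on the log2 scale, without overlap. In every low-score fetus 4 of the 7 were lower (57.1%, against 17.3% of all loci), namely C1QA, C1QB, CSF1R and CD68, the last in a locus merged with EIF4A1. C1QA, a complement component of macrophages, had 10.3, 11.3 and 13.4 FPKM in low-score and 26.3, 33.5 and 86.5 FPKM in high-score fetuses. The 7 adipocyte markers averaged 1.64 to 3.10 in low-score and 2.2 to 6.05 in high-score fetuses, with 1 of 7 lower in every low-score fetus (CFD, 14.3%, under the 17.3% of all loci). PLIN1, which coats the lipid droplet, had 0.243 to 4.96 FPKM in low-score fetuses, against 83.8 FPKM in 1417F3L, 27.5 FPKM in 1404F5L and 0.632 to 9.33 FPKM in the other high-score fetuses.

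The 7 fibroblast markers averaged 8.56 to 8.80 in low-score and 6.28 to 9.95 in high-score fetuses. Of the 7, 3 (FN1, COL1A2 and DCN) were lower in every low-score fetus (42.9%, against 17.3% of all loci). COL1A1 and COL3A1 are both listed at 0 in 1417F3L, the fetus at 6.28. The 4 erythroid markers averaged 2.64 to 3.82 in low-score and 3.49 to 7.22 in high-score fetuses, and HBB reached 3191 FPKM in 1340F5L and 2819 FPKM in 1412F2L, against 114 to 316 FPKM in low-score fetuses. The 7 endothelial markers averaged 4.13 to 4.66 in low-score and 4.50 to 4.91 in high-score fetuses, with overlap. Their median difference was -0.04, with 3 above 0 and 4 below, and 2 (VWF and PECAM1) were lower in every low-score fetus (28.6%, against 17.3% of all loci). Liver, cartilage, bone and epidermis markers overlapped for every gene. Among the middle fetuses no marker of adipocytes, endothelium, fibroblasts, macrophages or erythroid cells was called for the score, at the 20 fetuses available, while 3 of 6 muscle fibre markers (ACTA1, CKM and MYOG) rose, but 1 with the sow as a block and 1 with genotype and sex in the model.

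Most mitochondrially encoded genes lie in 1 merged locus that is listed at 0 in 4 fetuses, 1 of them the high-score fetus 1401F2L, and are given no fold. CYTB, measured apart, had 3046, 3743 and 5142 FPKM in low-score and 2503, 4658 and 7118 FPKM in high-score fetuses, with overlap and a difference of -0.17.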

How the data were processed

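RNA of the longissimus dorsi muscle of 32 fetuses was sequenced as unstranded paired-end libraries by the authors. Per the labels, Trim Galore, FastQC, TopHat2 2.1.0, Bowtie2 2.2.7.0, Cufflinks 2.2.1 and Cuffdiff are named with the Sscrofa11.1 build. Cuffdiff per the methods corrected for sequence bias and shared out multiply mapped reads. The authors deposited FPKM for 30413 loci. Loci that share a region (12464) can split or merge reads of neighbouring or antisense genes. Read counts were not analysed here, so no counting interval is given, and the relative depth (0.697 to 1.42) was estimated from the lowest FPKM values, with 88.5% of 496 library pairs within a tolerance of 0.06 on the log2 scale. Columns of the table were assigned to fetuses by their sample titles.

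FPKM were analysed as log2(FPKM + 0.5) for loci with a mean over 0.5 FPKM, which understates differences of low loci. Slopes on the score were fitted with limma 3.58.1 with a trend in R 4.3.3, with Benjamini-Hochberg adjustment over all loci, and the fit was tested on simulated data. Labels were compared with Fisher's exact test and an exact permutation test. Other steps used statmod 1.5.0, Python 3.11.15 with matplotlib 3.10.9, scipy 1.17.1, pandas 2.3.3 and numpy 2.4.6. GC content, length and transcript starts were taken from RefSeq on Sscrofa11.1.

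The members and lists were chosen with earlier results of these data known. Of 825 list genes 615 were matched by name, 71 by Ensembl number, 21 by RefSeq position and 118 had no locus. Named were the score genes, the 10 largest differences per direction with a symbol, at least 5 FPKM and no overlap, up to 4 members of each list, the 10 smallest p per direction in the middle fetuses and 3 unannotated loci per direction. Other genes were named after their values were seen, such as RPL22, RPS6, NDUFA5, COX6C, CAPZA2, CAPZB, NEB, SF3B2, EEF2, RACK1, NCL and the overlapping ribosomal proteins. The alternatives were other pseudocounts, filters, scalings, scores, group sizes, covariates and left-out fetuses or sows. Added after seeing the data were the GC and length correction (10 bins of GC by 4 of length), the loci it covers, loci above 0 in all fetuses, and the fit without 1417F3L, 1340F5L and 1410F6L.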

Additional observations from a re-analysis of the deposited data

Results flagged for a closer look

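Mean log2(FPKM + 0.5) of each list was examined for a fetus far from the other 5 of its group (Dixon's criterion on the gap over the range). Chance alone gives such a fetus in about 1 in 20 groups, and 11 of 72 groups (15.3%) had one. Lists share fetuses and are not independent.

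Of these, 5 concerned the high-score fetus 1417F3L. Its mean was 5.58 for thick filament genes (nearest other high-score fetus 7.15), 6.63 for thin filament genes (nearest 7.78), 4.95 for excitation-contraction genes (nearest 6.18), 8.37 for muscle fibre markers (nearest 9.84) and 6.28 for fibroblast markers (nearest 9.04), the last with COL1A1 and COL3A1 listed at 0. The high-score fetus 1340F5L had 2.63 for cell cycle genes (nearest 3.45) and 5.84 for FOXO targets and atrophy genes (nearest 3.94). The high-score fetus 1401F2L had 3.46 for the mitochondrially encoded loci (nearest 11.39), 2 of which are listed at 0 in it. The high-score fetus 1404F5L had 5.18 for bone markers (nearest 2.38), with 67.0 FPKM of IBSP. Among low-score fetuses 1338F2L had 9.32 for RPLP1 and RPL8 (nearest 9.56) and 1338F6L had 9.18 for muscle fibre markers (nearest 9.59).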

How the results depend on the processing

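Single genes were checked where they had been named by difference, list or p-value, but not where they were named only after their values were seen. Among the checked genes none whose groups did not overlap changed the sign of its difference, and no called slope changed direction. List medians were less stable. Of 952 alternative list medians 35 changed by more than the spread between fetuses, 16 of them under the GC and length correction. The ribosome biogenesis median changed sign there, from -0.26 to 0.07, with SDs of the list mean of 0.03 in low-score and 0.16 in high-score fetuses. With 8 against 8 fetuses 337 loci were higher and 1696 lower in low-score fetuses, and the ribosomal protein median was -0.91. Over all loci with a GC value 804 were higher in low-score fetuses and 369 fell with the score. After the GC and length correction 934 were lower and 728 rose, and the ribosomal protein median was -0.51. A score over all ribosomal protein genes gave 1015 rising and 154 falling loci and a median of -0.84 over the ribosomal proteins left outside it. With genotype and sex in the model 1084 rose and 186 fell, and with the sow as a block 1407 and 267, of which 1211 and 1465 loci in all were also called without these terms. After the GC and length correction 868 of the main calls were made again, against 1868 over the same loci without it. Median-of-ratios rescaling gave 944 falling loci and, with the score kept or made again, a splicing factor median of 0.47, and it gave 44.2% higher among non-overlapping loci, against 30.7%. Without sow 1340 1026 loci fell. Without the middle fetus 1338F3L 300 loci fell. The unannotated loci had a median of 0.60 with a pseudocount of 0.1 and 0.31 with a pseudocount of 1.

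Leaving out 1 fetus at a time gave 1278 to 1843 higher and 2857 to 3339 lower loci, and 1594 to 2610 rising and 300 to 869 falling loci. Of 2855 alternative slopes of the checked genes 117 lost their call. Of these, 22 did so under a score over all ribosomal protein genes, 18 under the GC and length correction, 15 with genotype and sex in the model and 10 with the sow as a block. Of 4481 alternative differences 91 changed by more than the spread, 87 of them under the GC and length correction. Without read counts the precision of low FPKM values is unknown.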

Other observations

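Small RNA loci and zinc finger genes were searched by name after the data were seen. Of 43 loci with a microRNA in their name 3 were higher and 2 lower in every low-score fetus, with a median difference of 0.61, and 8 fell and 3 rose in the middle fetuses in limma (3.70% and 13.1% of all loci). The 169 loci with a snoRNA in their name had a median difference of 0.03. Of 242 loci named ZNF, zinc finger proteins most of which are thought to bind DNA, 38 (15.7%) were higher and 32 (13.2%) lower in low-score fetuses, and 30 (12.4%) fell and 18 (7.44%) rose with the score. ZNF251 had 7.75, 10.2 and 12.6 FPKM (lowest, median, highest) in low-score and 5.87, 6.17 and 7.83 FPKM in high-score fetuses, with a slope of -1.0 (standard error 0.14, adjusted p = 3.8e-05 in limma).

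Cell cycle genes had a median difference of 0.01 over 24 loci, with 3 lower in every low-score fetus (CCND3 and the merged loci of MCM5 and MCM7, 12.5%, against 17.3% of all loci) and 2 rising (CCND3 and MCM7, 8.33%, against 13.1%) with the score. Without 1340F5L the median was -0.27 and 6 were lower, against 20.6% of all loci under that setting. The locus of MCM7 and TAF6, which includes a subunit of the replicative helicase, had 35.0, 36.1 and 39.4 FPKM in low-score and 47.6, 57.4 and 67.1 FPKM in high-score fetuses. Its slope was 0.69 (standard error 0.11, adjusted p = 0.00025 in limma, but 0.052 after the GC and length correction). PCNA, the sliding clamp, overlapped, with 34.3 to 45.6 FPKM in low-score and 5.14 to 40.8 FPKM in high-score fetuses. Of 16 FOXO targets and atrophy genes 4 were lower in every low-score fetus (TSC22D3, MAP1LC3B, GABARAPL1 and SQSTM1, 25%, against 17.3% of all loci), with a median of -0.64 that was -0.13 without 1340F5L. TSC22D3, a glucocorticoid-induced gene, had 27.6, 29.6 and 31.3 FPKM in low-score and 46.7, 50.6 and 148 FPKM in high-score fetuses, the highest in 1340F5L, and its slope of 0.16 was not called (adjusted p = 0.83).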
